A study of Mus musculus with 16 samples.

Results

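The report concerns 34 genes that mark T cells and natural killer (NK) cells, read in 16 RNA sequencing libraries of mouse bone marrow. They were chosen by name, as the entries of the deposited count table whose Ensembl IDs map to a list of T and NK cell symbols. All 34 were found among 45706 gene IDs. The rule uses no measured value, but the list was chosen with earlier results of these data known. By role, 7 encode the T cell receptor complex, 6 coreceptors and proximal kinases, 4 T cell transcription factors, 5 adhesion and costimulatory receptors, 5 NK and cytokine receptors, 5 cytotoxic effectors and 2 T-box factors.

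The series asks how blood formation with a lowered dose of the transcription factor GATA2 responds to the challenge of a transplant of few sorted stem and progenitor cells into lethally irradiated WT mice. The groups are labelled WT or Gata2. LSK cells, the lineage-negative, Sca-1 and Kit positive marrow cells that hold stem cells and early progenitors, were sequenced at Day0 (2 WT and 3 Gata2 libraries) and at Day2 (3 WT and 2 Gata2). Marrow cells bearing CD45.2, a form of a leukocyte surface protein used to tell donor from host cells, were sequenced at Week2 (3 libraries per genotype). The labels give neither the age or strain of the mice, nor the Gata2 allele, nor the handling of LSK cells from Day0 to Day2. Whether replicates are separate animals is not stated, so p-values here measure the spread among libraries, which may be in part or, in groups of 1 sex, wholly technical.

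T cells recognise antigen through a receptor whose variable chains sit among CD3 proteins that carry the signal into the cell, where the kinases Lck and Zap70 pass it on. NK cells kill without such a receptor, using a balance of activating and inhibitory surface proteins, and both they and killer T cells empty granules of perforin and granzymes onto their targets. T cells mature in the thymus and recirculate to the marrow, whereas NK cells largely develop in the marrow itself.

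Library totals ranged from 19618830 to 68305582 counts in the LSK cells and from 176933583 to 320717267 at Week2. The number of genes with a count was 22150 to 30564 at Day0, 19266 to 21944 at Day2 and 38750 to 42508 at Week2. Day0_WT replicate 1 was the shallowest library. Gata2 itself stood at 388 ± 82.2 CPM (counts scaled to a common library total; SD, n = 2) in Day0_WT and 680 ± 71 (n = 3) in Day0_Gata2, at 271 ± 17.6 (n = 3) and 614 ± 174 (n = 2) at Day2, and at 12.5 ± 1.76 and 15.9 ± 10.2 (n = 3 each) at Week2. At no time was its mean lower under the Gata2 label than under WT, so its level does not check that label. Day0_WT replicate 2, Day0_Gata2 replicate 3 and Week2_Gata2 replicate 3 read as female and the others as male, so Day0_WT, Day0_Gata2 and Week2_Gata2 each held more than 1 animal. Summed CPM of 8 stem and LSK markers, all of them detected in every LSK library, was 1329 to 2038 in LSK cells and 52.2 to 158 at Week2. These sums were scaled in separate LSK and Week2 fits. On the scale of all 16 libraries those at Week2 were 65.3 to 144.

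Per kilobase of exon, Nkg7, a membrane protein of cytotoxic granules, had the highest mean of the 34 genes in every group. It was 179 CPM per kb in Day0_WT, 257 in Day0_Gata2, 137 in Day2_WT, 151 in Day2_Gata2, 109 in Week2_WT and 157 in Week2_Gata2. The next highest in LSK cells by mean over the 10 libraries were Gzmb, Lck, Ccl5 and Klrd1, in an order that differed by day. Gzmb was at 1.61 and 1.23 CPM per kb in Day0_WT and Day0_Gata2 and at 28.8 and 19.6 at Day2, and Lck at 11.2 and 11.6 and at 3.55 and 2.55. At Week2 they were Gzma (46.3 CPM per kb in WT and 71.2 in Gata2), Cd2 (44.3 and 49.9), Ccl5 (18.4 and 23.3) and Gzmb (13.6 and 20.5). The SDs at Week2 were as large as these gaps (48.1 and 82.1 for Gzma, 17.1 and 18.9 for Cd2), so Gzma and Cd2 are not separated in that order, nor are Ccl5 and Gzmb. Nkg7 had SDs of 60.2 and 114, and in Week2_Gata2 replicate 2 Gzma (165) exceeded it (159). Cd3e, the CD3 chain most used to identify T cells, stood at 0.574 and 0.397 CPM per kb in Day0_WT and Day0_Gata2 and at 0.237 and 0.454 at Week2. LSK and Week2 levels in this paragraph were scaled in separate fits, so they are not on the same scale.

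**Figure D1:**
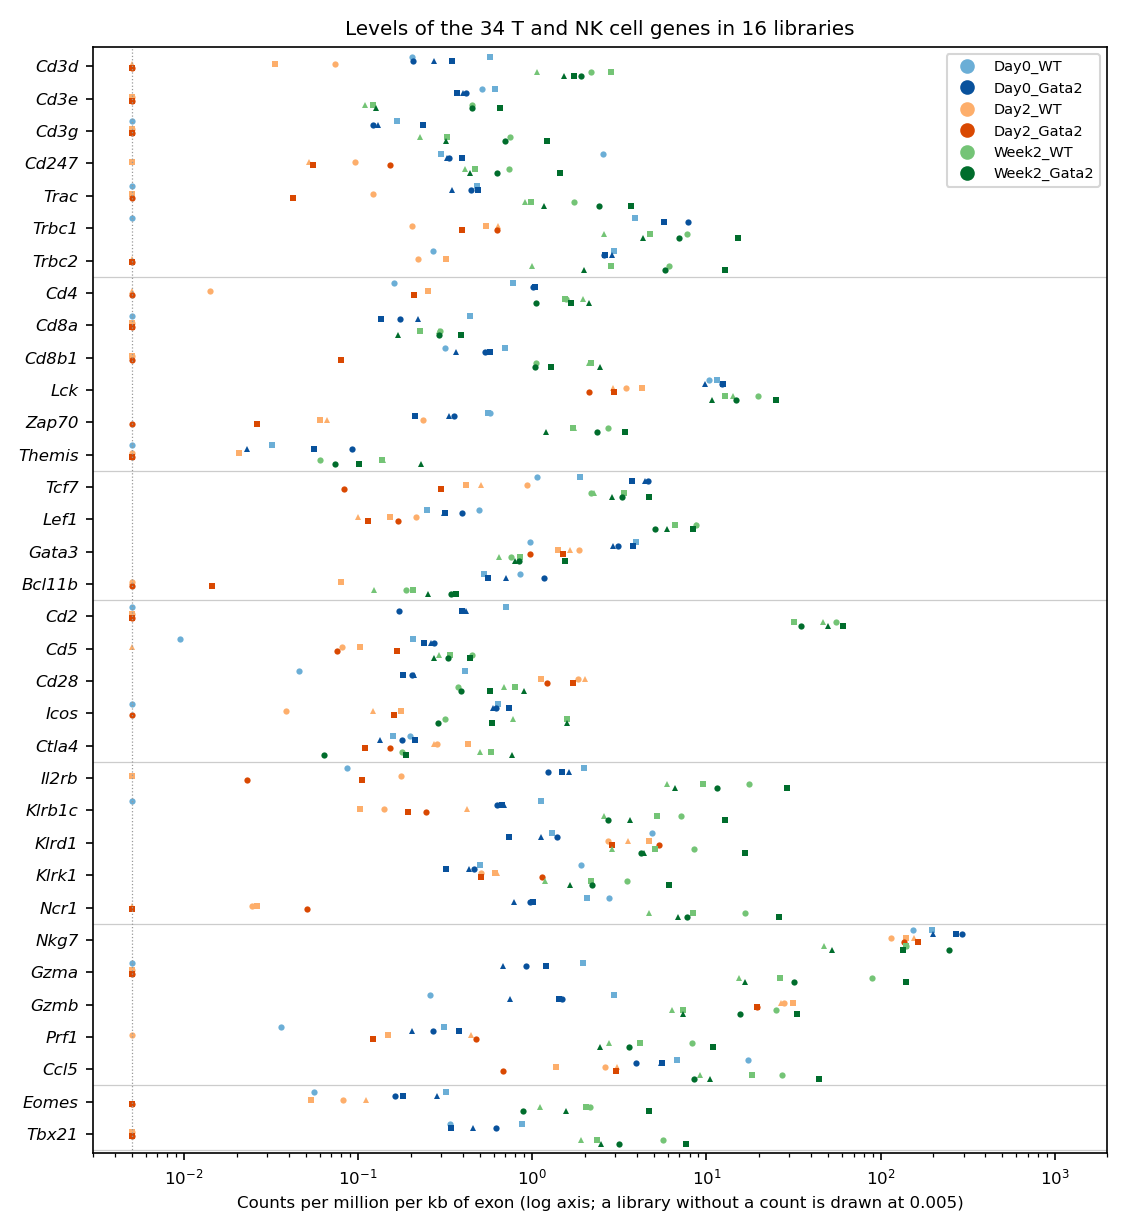
Level of each of the 34 genes in each of 16 libraries, in CPM per kb of exon on a log axis, coloured by group, with libraries lacking a count drawn at 0.005 and genes ordered by role. Levels are on the scale of the fit of all 16 libraries. Nkg7 lies furthest to the right, and the Day2 points of Cd3e, Cd3g, Cd8a, Cd2, Gzma and Tbx21 all lie on the line of libraries without a count.

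Between Day0 and Day2 many of these genes fell out of the LSK libraries and 2 rose. Cd3e, Cd3g, Cd8a, Cd2, Gzma and Tbx21 had 0 counts in all 5 Day2 libraries, against totals of 451, 117, 196, 164, 257 and 330 counts over the 5 Day0 libraries. Of all 19162 genes tested in LSK cells, 437 (2.28%) had 0 counts in every Day2 library. Among genes whose mean at Day0 lay in the same range as these 6 genes, 0.429 to 1.91 CPM, the share was 4.6% (154 of 3350), and 17 of the 34 genes lay in that range. Gzmb, which encodes granzyme B, and Cd28, the costimulatory receptor of T cells, rose in both genotypes. A count of 0 allows up to 3 counts, which is 0.0571 to 0.0608 CPM in the Day2 libraries; this limit and the bounds on folds below cover counting error only.

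At an adjusted p under 0.05 by edgeR's quasi-likelihood test, 12 of the 34 genes (35.3%) fell and 2 rose from Day0 to Day2 in WT, where 17.9% of all genes tested fell and 11.9% rose (29.9% in all). In the libraries labelled Gata2, 10 of the 34 (29.4%) fell and 2 rose, where 4.82% of all genes tested fell and 4.48% rose (9.3% in all). The WT groups did not overlap for 13 genes lower and 3 higher at Day2, where 26.7% and 24.8% of all genes did not. The Gata2 groups did not overlap for 28 lower and 4 higher, where 34.4% and 25.9% did not. The median log2 fold change over the 34 genes was -2.18 in WT, or -2.16 with genes lacking Day2 counts put at their bound, beside -0.11 over all genes. In Gata2 it was -3.60, or -3.21 with bounds, beside -0.07. Lck, Cd3e, Tbx21 and Ncr1 fell in both genotypes, which is 4 of 12 and 4 of 10, and 18 genes fell in at least 1. How many of all genes fell in both genotypes or in at least 1 was not counted, so neither number has a background. In bulk RNA, fewer cells of a type and less RNA per cell cannot be told apart.

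Promoters are shown for 4 genes, the pair of granzymes that moved apart and 2 of the genes without a Day2 count that fell in both genotypes, as 200 bases upstream of the RefSeq start in build GRCm38.p6, all on the minus strand and written 5′ to 3′. Capitals mark TGTGGT, the core letters bound by RUNX factors, or its reverse ACCACA, on either strand. Gzma, at chr13:113100982-113101181, is the granzyme that lost its counts and Gzmb, at chr14:56262335-56262534, the one that rose. Cd3e, at chr9:45009612-45009811, and Tbx21, at chr11:97115332-97115531, had no Day2 count.
Gzma: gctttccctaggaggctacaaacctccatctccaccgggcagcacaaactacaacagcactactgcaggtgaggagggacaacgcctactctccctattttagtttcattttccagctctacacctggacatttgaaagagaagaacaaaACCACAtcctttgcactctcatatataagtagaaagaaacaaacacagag
Gzmb: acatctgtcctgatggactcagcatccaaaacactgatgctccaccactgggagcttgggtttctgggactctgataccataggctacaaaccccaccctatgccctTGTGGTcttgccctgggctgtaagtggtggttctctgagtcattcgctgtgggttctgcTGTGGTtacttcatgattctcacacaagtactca
Cd3e: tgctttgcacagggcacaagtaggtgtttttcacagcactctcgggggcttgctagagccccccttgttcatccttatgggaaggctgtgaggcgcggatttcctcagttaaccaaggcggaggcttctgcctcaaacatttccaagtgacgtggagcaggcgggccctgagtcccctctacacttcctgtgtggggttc
Tbx21: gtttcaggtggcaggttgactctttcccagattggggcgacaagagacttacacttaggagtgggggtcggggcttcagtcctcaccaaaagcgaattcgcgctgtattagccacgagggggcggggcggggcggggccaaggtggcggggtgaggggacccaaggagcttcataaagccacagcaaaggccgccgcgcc
The granzyme gene that rose and the one without Day2 counts both held the letters, Gzmb with 2 matches and Gzma with 1, and neither Cd3e nor Tbx21 held them. Over 32851 such windows, 11.2% held TGTGGT on either strand. Promoters of 23 of the 34 genes were in the RefSeq table, with 32 windows. Of these windows 10 held it, from 9 of the 23 genes, namely Gzma, Gzmb, Klrb1c, Klrk1, Lck, Ncr1, Nkg7, Prf1 and Zap70. The T-box letters GGTGTGA or TCACACC were in 2.6% of windows and in Nkg7 alone among these genes. The GATA letters AGATAA or TTATCT were in 7.8% of windows and in Cd3g alone. A match is a description of the letters in the window and not evidence of a bound site.

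In the receptor complex, 3 of 7 genes fell in WT (Cd3e, Cd3g and Cd247) and 3 of 7 in Gata2 (Cd3d, Cd3e and Trbc2). The 3 CD3 genes lie side by side on chromosome 9 (chr9:44969572-45009627). Cd3e stood at 2.18 and 2.51 CPM in Day0_WT and at 1.72, 1.51 and 1.63 in Day0_Gata2, and had 0 counts in each of the 5 Day2 libraries. The Day0 libraries lay close together and above all of Day2. The fall was at least 39.5-fold in WT (adjusted p = 0.00111) and at least 27.4-fold in Gata2 (adjusted p = 0.00466) by edgeR's quasi-likelihood test. Both falls were called under each of 9 alternatives that tested the gene and with each library left out.

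Cd3d and Cd3g, the partner chains of CD3, were lower still at Day0. Cd3d stood at 0.387 and 1.04 CPM in Day0_WT, 0.379, 0.637 and 0.493 in Day0_Gata2, 0.133, 0.0608 and 0 in Day2_WT and 0 in both Day2_Gata2 libraries. Its Day0 libraries did not overlap Day2, and it fell at least 8.49-fold in Gata2 (adjusted p = 0.0413) while in WT its log2 fold change of -3.42 had an adjusted p of 0.0544. Cd3g was at 0 and 0.549 CPM in Day0_WT and at 0.399, 0.776 and 0.422 in Day0_Gata2. Since Day0_WT replicate 1 had no count either, the WT groups overlapped and the WT call (at least 4.63-fold, adjusted p = 0.0441) rests on Day0_WT replicate 2: without that library the log2 fold change was 0. In Gata2, Cd3g had a bound of 8.99-fold and an adjusted p of 0.0954.

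Cd247 encodes the zeta chain, which is shared by the T cell receptor and NK receptors. Its 14.1 CPM in Day0_WT replicate 1 stood apart from the 1.61 to 2.13 of the other 4 Day0 libraries, and Day2 ran from 0.0203 to 0.514 in WT and was 0.81 and 0.296 in Gata2. It fell by 4.83 on the log2 scale in WT (SE 1.13, adjusted p = 0.0138), and by 2.58 with an adjusted p of 0.087 without Day0_WT replicate 1. In Gata2 the value was -1.76 (adjusted p = 0.376). On the opposite strand Pou2f1 covers 56.4% of its exon length, and how strands were counted is not given, so reads of the 2 genes may be mixed.

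The constant regions of the receptor chains, Trac (alpha) and Trbc1 and Trbc2 (beta), were present at Day0 at a few CPM or less. Trbc2 stood at 0.193 and 2.04 CPM in Day0_WT and at 1.80, 1.83 and 1.97 in Day0_Gata2. At Day2 it was 0.152, 0.223 and 0 in WT and 0 in both Gata2 libraries, where the fall was at least 31.5-fold (adjusted p = 0.0314). In WT its groups overlapped. Trac was at 0 and 0.451 CPM in Day0_WT, 0.419, 0.458 and 0.324 in Day0_Gata2, 0.114, 0 and 0 in Day2_WT and 0 and 0.0394 in Day2_Gata2, and neither comparison called it. Trbc1, at 4.24 to 5.93 CPM in Day0_Gata2 and 0.152 to 0.479 over Day2, was not called either. Its WT libraries at Day0 were at 0 and 2.94 CPM, and its log2 fold change in WT was -3.12 without the first and 7.02 without the second. Trbc1 and Trbc2 are 95.9% identical over 508 aligned bases, so their counts may be shared.

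Of the coreceptors and kinases, Lck fell in both genotypes. It encodes the Src family kinase that sits on CD4 and CD8 (chr4:129548344-129573641). Lck stood at 31.5 and 33.9 CPM in Day0_WT, 36.5, 37 and 28.5 in Day0_Gata2, 10.1, 12.5 and 8.57 in Day2_WT and 6.26 and 8.68 in Day2_Gata2. Every Day0 library lay above every Day2 library. Lck fell by 1.65 on the log2 scale in WT (SE 0.25, adjusted p = 0.00199) and by 2.19 in Gata2 (SE 0.27, adjusted p = 0.00172), and both calls held in all 10 alternatives and all 10 fits that left out a library.

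Zap70, the kinase recruited to the phosphorylated receptor, was at 1.79 and 1.67 CPM in Day0_WT, 1.08, 0.637 and 0.985 in Day0_Gata2, 0.704, 0.182 and 0.200 in Day2_WT and 0 and 0.0789 in Day2_Gata2. Its groups did not overlap in either genotype; it fell by 4.43 in Gata2 (SE 1.20, adjusted p = 0.0490), and its WT value was -2.24 (adjusted p = 0.0919). The CD8 coreceptor chains lie together on chromosome 6 (chr6:71322788-71379173). Cd8b1 stood at 0.484 and 1.04 CPM in Day0_WT and 0.535 to 0.856 in Day0_Gata2, with counts at Day2 only in Day2_Gata2 replicate 2 (0.118), and fell at least 12.8-fold in WT (adjusted p = 0.0109). Cd8a, without a count in Day0_WT replicate 1 and at 1.61 in replicate 2, was called lower in WT (at least 13.6-fold, adjusted p = 0.0325) through replicate 2 alone; at 0.498 to 0.802 CPM in Day0_Gata2 it had a bound of 10.9-fold and an adjusted p of 0.112. Cd4, at 0.677 to 4.20 CPM at Day0 and 0 to 1.01 at Day2, and Themis, a regulator of thymocyte signalling at 0 to 1.08 and 0 to 0.243, were not called.

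Among the transcription factors, Tcf7 and Bcl11b were called lower in 1 genotype each, though neither overlapped between days in the other. Tcf7 encodes TCF-1, an early T lineage factor also expressed in NK cells and innate lymphoid cells. It stood at 2.90 and 4.92 CPM in Day0_WT, 12.2, 9.95 and 11.6 in Day0_Gata2, 2.46, 1.09 and 1.34 in Day2_WT and 0.217 and 0.789 in Day2_Gata2. The Gata2 libraries were thus the highest at Day0 and the lowest at Day2, with no overlap between any of the 4 groups. Tcf7 fell by 4.48 on the log2 scale in Gata2 (SE 0.69, adjusted p = 0.00466), a call that held in all 10 alternatives and all 10 fits without a library, and its WT value was -1.27 (adjusted p = 0.112). The test of the difference between the 2 changes gave -3.21 (SE 0.85, unadjusted p = 0.00396, adjusted p = 0.465), which did not pass.

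Bcl11b, which locks T cell commitment, stood at 7.21 and 4.29 CPM in Day0_WT, 9.50, 4.54 and 5.70 in Day0_Gata2, 0.0190, 0.648 and 0 in Day2_WT and 0 and 0.118 in Day2_Gata2. Day0 and Day2 did not overlap in either genotype. It fell by 4.68 in WT (SE 1.41, adjusted p = 0.0339), and in Gata2 the value was -6.74 with an adjusted p of 0.0521. Gata3, a T cell and innate lymphoid factor, and Lef1, the relative of TCF-1, were not called: Gata3 ran from 4.01 to 15.6 CPM at Day0 and from 3.85 to 7.42 at Day2, and Lef1 from 2.19 to 4.55 and from 0.879 to 1.88.

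Cd28 was 1 of the 2 genes that rose. It stood at 0.290 and 2.53 CPM in Day0_WT, 1.26, 1.11 and 1.28 in Day0_Gata2, 11.2, 6.91 and 12.3 in Day2_WT and 7.45 and 10.6 in Day2_Gata2. Each Day2 library exceeded each Day0 library. The log2 fold change was 2.80 in WT (SE 0.75, adjusted p = 0.0222) and 2.89 in Gata2 (SE 0.67, adjusted p = 0.0277). The WT value of Cd28 was 1.97 without Day0_WT replicate 1 and 5.12 without replicate 2. Its neighbours on chromosome 1 within 283.5 kb (chr1:60716800-61000320), the costimulatory receptor Icos and the inhibitory receptor Ctla4, were not called: Icos ran from 0 to 2.53 CPM at Day0 and 0 to 0.608 at Day2, Ctla4 from 0.310 to 0.498 and 0.256 to 0.992. Of the adhesion proteins, Cd2 was at 0 and 1.23 CPM in Day0_WT and 0.299, 0.697 and 0.718 in Day0_Gata2 before its 5 libraries without a count; its call in WT (at least 10.4-fold, adjusted p = 0.0369) again rested on Day0_WT replicate 2, and in Gata2 the adjusted p was 0.117. Cd5, a brake on receptor signalling at 0.0484 to 1.36 and 0 to 0.828 CPM, was not called.

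Of the NK receptors, Ncr1 fell and the NKG2 receptors did not. Ncr1 (chr7:4337724-4345164) encodes NKp46, a receptor largely limited to NK cells and some innate lymphoid cells. It stood at 4.40 and 3.19 CPM in Day0_WT, 1.5, 1.57 and 1.21 in Day0_Gata2, 0.0381, 0.0405 and 0 in Day2_WT and 0.0790 and 0 in Day2_Gata2, or 494 counts over Day0 and 8 over Day2. The days did not overlap, and at Day0 both WT libraries lay above the 3 labelled Gata2. Ncr1 fell by 7.04 on the log2 scale in WT (SE 1.07, adjusted p = 0.00221), in every alternative that tested it and every fit without a library, and by 5.09 in Gata2 (SE 1.15, adjusted p = 0.0250).

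Klrd1 and Klrk1, which encode CD94 and NKG2D and together span 32.1 kb on chromosome 6 (chr6:129591782-129623864), totalled 1244 and 1236 counts over the Day2 libraries. Klrd1 was at 6.48 and 1.67 CPM in Day0_WT, 1.80, 0.955 and 1.42 in Day0_Gata2, 3.48, 6.06 and 4.55 in Day2_WT and 6.84 and 3.71 in Day2_Gata2. Day0_WT replicate 1 overlapped Day2, while the Gata2 groups did not overlap (log2 fold change 1.92, adjusted p = 0.0780; in WT 0.22, adjusted p = 0.815). Klrk1 showed the same high library, at 14.3 and 3.61 CPM in Day0_WT against 2.33 to 3.33 in Day0_Gata2 and 3.65 to 8.2 at Day2, and was not called. Klrb1c, the NK1.1 antigen, at 0 and 3.35 CPM in Day0_WT, 1.88, 2.01 and 2.03 in Day0_Gata2, 0.419, 0.304 and 1.26 in Day2_WT and 0.731 and 0.572 in Day2_Gata2, and Il2rb, a chain of the receptor for interleukins 2 and 15, at 0.387 to 8.49 and 0 to 0.761, were not called. The WT value of Klrb1c was 7.95 without Day0_WT replicate 2 and -2.37 without replicate 1, so its direction rests on 1 library.

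The cytotoxic effectors moved apart. Gzmb stood at 0.387 and 4.23 CPM in Day0_WT, 2.16, 2.07 and 1.07 in Day0_Gata2, 40.2, 45.3 and 38.6 in Day2_WT and 28.1 and 28.3 in Day2_Gata2. All Day2 libraries lay far above all Day0 libraries, and the 2 Day2 groups did not overlap. The rise was 4.11 on the log2 scale in WT (SE 0.79, adjusted p = 0.00604) and 4.0 in Gata2 (SE 0.68, adjusted p = 0.00719). The WT value of Gzmb was 3.26 without Day0_WT replicate 1 and 6.74 without replicate 2. Gzma, the other abundant granzyme of NK cells, was at 0 and 1.98 CPM in Day0_WT and 0.938, 1.21 and 0.676 in Day0_Gata2 and was without a count in all Day2 libraries. Its fall in WT (at least 16.7-fold, adjusted p = 0.0307) rested on Day0_WT replicate 2, and in Gata2 the bound of 15.9-fold had an adjusted p of 0.0996.

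Nkg7 was at 145 and 182 CPM in Day0_WT, 270, 251 and 183 in Day0_Gata2, 105, 128 and 142 in Day2_WT and 126 and 150 in Day2_Gata2. Within each genotype its Day2 libraries lay under those of Day0, and it fell by 0.77 on the log2 scale in Gata2 (SE 0.21, adjusted p = 0.0493); in WT the value was -0.39 (adjusted p = 0.172). Ccl5, a chemokine stored by killer cells, was at 17.4 and 6.53 CPM in Day0_WT, 3.81, 5.35 and 5.24 in Day0_Gata2, 2.53, 1.32 and 2.96 in Day2_WT and 0.652 and 2.92 in Day2_Gata2. It fell by 2.39 in WT (SE 0.66, adjusted p = 0.0251), a call that was lost without Day0_WT replicate 1 (-1.55, adjusted p = 0.119), and was not called in Gata2 (-1.43, adjusted p = 0.238). Prf1, the pore-forming perforin, ran from 0.0967 to 0.995 CPM at Day0 and from 0 to 1.22 at Day2 and was not called.

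The T-box factors direct NK cell and killer T cell programmes. Tbx21, which encodes T-bet (chr11:97098071-97115331), stood at 0.870 and 2.18 CPM in Day0_WT and 1.56, 0.856 and 1.13 in Day0_Gata2, with no count at Day2. It fell at least 25.7-fold in WT (adjusted p = 0.00307) and at least 19.9-fold in Gata2 (adjusted p = 0.0123). Eomes was at 0.242 and 1.33 CPM in Day0_WT, 0.679, 0.756 and 1.17 in Day0_Gata2, 0.343, 0.223 and 0.459 in Day2_WT and 0 and 0.0197 in Day2_Gata2. It fell by 6.14 on the log2 scale in Gata2 (SE 1.28, adjusted p = 0.0178), and in WT, where Day0_WT replicate 1 lay among the Day2 libraries, the value was -1.23 (adjusted p = 0.301).

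**Figure D2:**
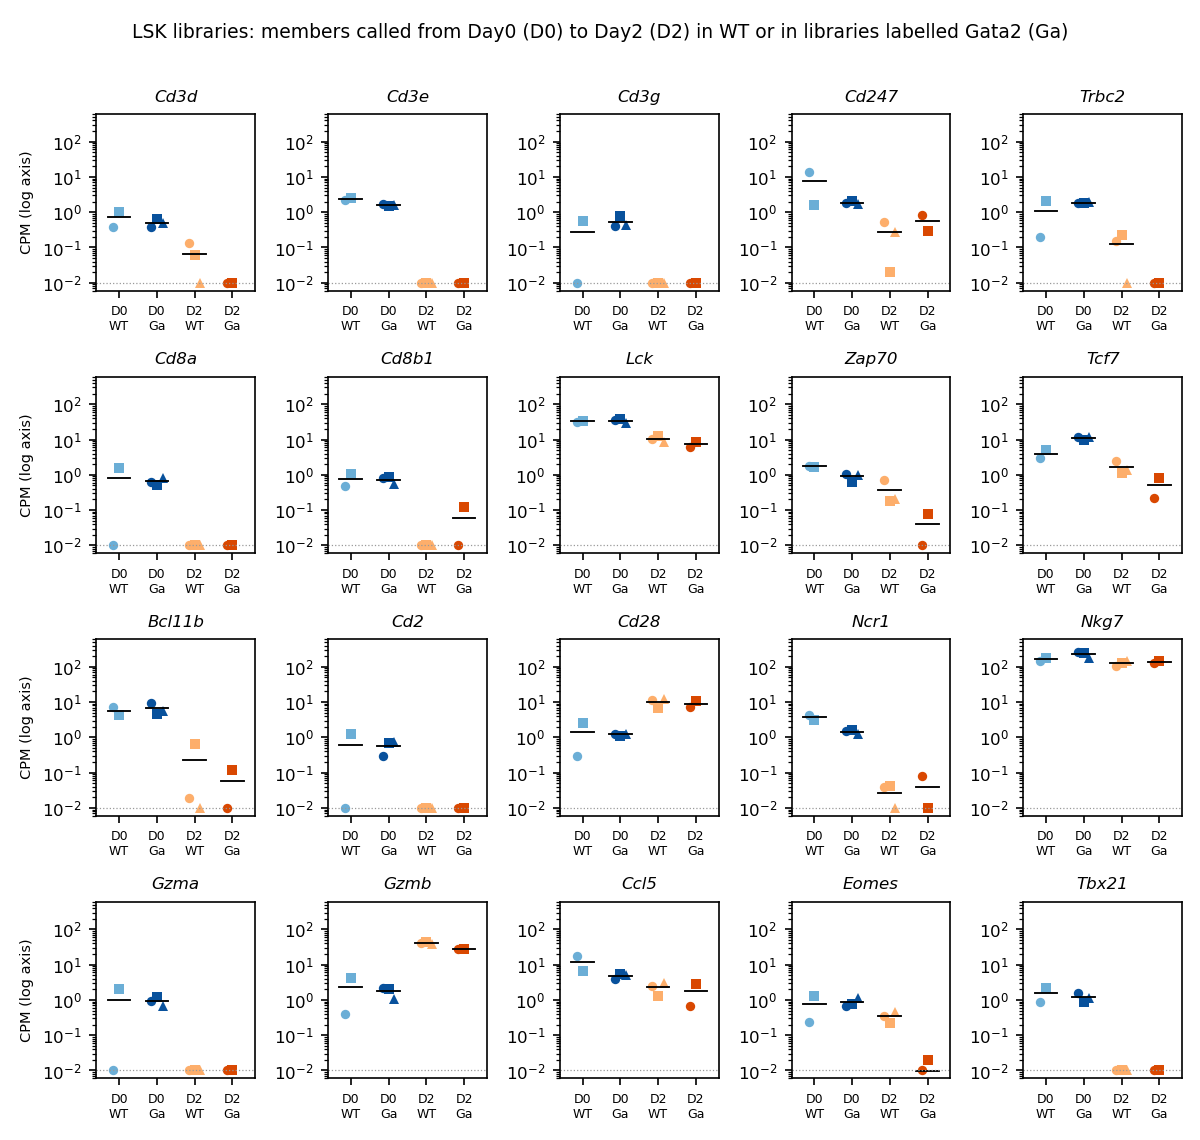
CPM on a log axis in each LSK library for the 20 genes called from Day0 to Day2 in either genotype; each point is a library, bars are group means, and libraries without a count are drawn at 0.01. Gzmb and Cd28 stand higher at Day2 in every library, Cd3e and Tbx21 have no Day2 count, and Day0_WT replicate 1 alone among the Day0 libraries lies on the line of 0 counts for Cd3g, Cd8a, Cd2 and Gzma.

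Day0_WT replicate 1 had no count of 9 of the 34 genes (Cd3g, Trac, Trbc1, Cd8a, Themis, Cd2, Icos, Klrb1c and Gzma), all of which were detected in the other 4 Day0 libraries. Without it, which left Day0_WT with 1 library, the WT calls of Cd247 and Ccl5 were lost, at log2 fold changes of -2.58 and -1.55. Calls were also gained in that fit, those of Trbc1 (-3.12) and Klrb1c (-2.37) among them. Without Day0_WT replicate 2, which also left 1 library, the WT calls of Cd3g, Cd8a, Cd2 and Gzma were lost, each at a log2 fold change of 0. Without Day2_WT replicates 1, 2 and 3, 8, 10 and 6 of the 34 genes (23.5%, 29.4% and 17.6%) were called in WT. Of all genes tested in the same fits, 23.2%, 16.7% and 17.5% were called. Without Day0_Gata2 replicates 1, 2 and 3, 9 of the 34 (26.5%) were called in WT each time, beside 21.5%, 21.7% and 22.2% of all genes. In Gata2 those fits called 6, 5 and 5 of the 34 (17.6%, 14.7% and 14.7%), beside 4.55%, 3.7% and 4.11% of all genes.

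Other cell types' markers moved too. The summed CPM of 10 B cell markers was 67.4 to 162 at Day0 and 22.6 to 36.3 at Day2, and 5 of the 10 fell in WT and 1 in Gata2; Ms4a1, Pax5 and Ebf1 had no count in Day2_WT. Erythroid markers (6) went from 98.1 to 199 down to 12.5 to 20.9, with 5 called lower in WT and 3 in Gata2, and plasma cell markers (6) from 117 to 208 down to 36.5 to 78.4. Neutrophil markers (8) went from 75.9 to 281 up to 623 to 1738, and megakaryocyte and platelet markers (6) from 355 to 514 up to 1710 to 2373. At similar depth the Day2 libraries also held fewer genes with a count. The part of these shifts in the changes of the T and NK cell genes was not tested, and which library kit was used for which sample is not stated.

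**Figure D3:**
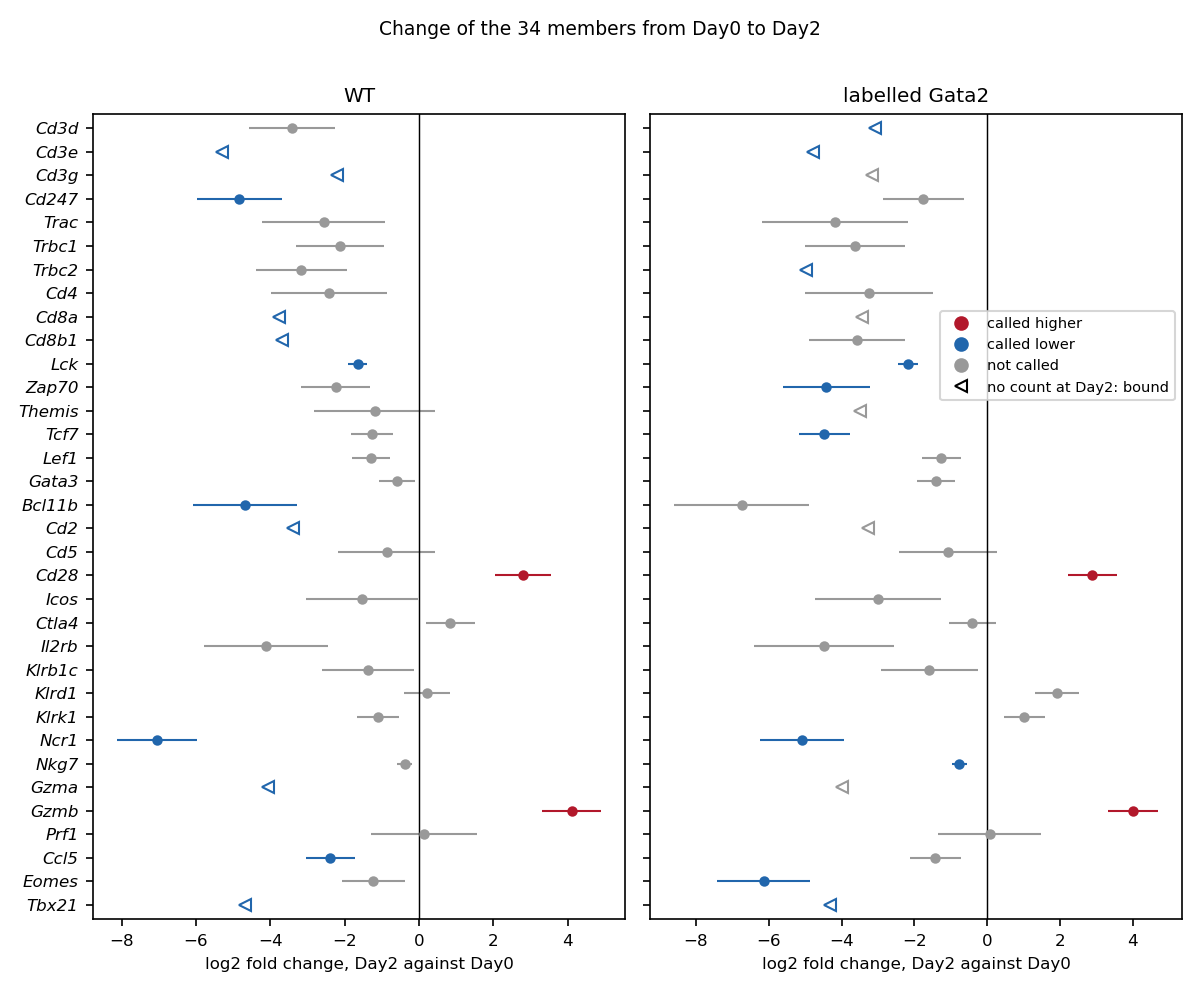
Log2 fold change from Day0 to Day2 of the 34 genes in WT (left) and in libraries labelled Gata2 (right), with bars of 1 SE from edgeR; open triangles mark genes without a Day2 count at their bound, in place of the fitted value. Red marks Cd28 and Gzmb, called higher in both panels, and blue the 12 and 10 genes called lower.

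Other genes of the same pathways, from lists chosen with earlier results of these data known, were read from the same fits. Of 28 other T cell genes, 25 passed the filter on low counts. In WT 9 fell (36%) and 2 rose (8%), where 17.9% of all genes tested fell and 11.9% rose. In Gata2 4 fell (16%) and 1 rose (4%), where 4.82% of all genes fell and 4.48% rose. Cd27, a costimulatory receptor also found on progenitors, went from 150 ± 25.3 to 63.0 ± 3.6 CPM in WT (-1.25, adjusted p = 0.000554) and from 174 ± 5.36 to 82.2 ± 9.33 in Gata2 (-1.08, adjusted p = 0.00276). Tox and Skap1 also fell in both genotypes, and Lat, the adaptor downstream of Zap70, rose by 0.91 in WT (adjusted p = 0.00570) and 0.64 in Gata2 (adjusted p = 0.0421). In WT, genes that fell too included Thy1, Il7r, Il2ra, Rag1 and Rag2, and Cd96 rose, and in Gata2 Ets1 fell.

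Of 28 other NK cell and cytotoxic genes, 24 passed the filter. In WT 6 fell (25%) and 4 rose (16.7%), where 17.9% of all genes tested fell and 11.9% rose. In Gata2 3 fell (12.5%) and 1 rose (4.17%), where 4.82% of all genes fell and 4.48% rose. Ccl4, an inflammatory chemokine, went from 158 ± 3.54 to 9.57 ± 2.22 CPM in WT (-4.04, adjusted p = 5.58e-05) and from 73.4 ± 20.7 to 2.83 ± 0.15 in Gata2 (-4.69, adjusted p = 8.18e-05). S1pr5, the receptor by which NK cells leave the marrow, stood at 29.4 and 7.43 CPM in Day0_WT and 4.34 to 19.0 in Day0_Gata2 and at 0 to 0.0203 over Day2, falling by 11.0 (adjusted p = 0.000506) and by 9.73 (adjusted p = 0.00301). Ctsw also fell in both, and Gzmc, a further granzyme, rose by 4.98 in WT (adjusted p = 0.0228) and by 4.29 in Gata2 (adjusted p = 0.0413). In WT, Klri2, Il18rap and Serpinb9b fell too and Cd244a, Nfil3 and Fcgr3 rose. Of 8 innate lymphoid cell genes, Il17rb fell in both genotypes, by 4.43 (adjusted p = 0.000754) and by 2.28 (adjusted p = 0.0306).

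Between genotypes in LSK cells, none of the 34 genes was called at Day0 or at Day2 by edgeR's quasi-likelihood test, and no gene of the 19162 tested was (0%). At an unadjusted p under 0.05, 2586 of all genes (13.5%) passed at Day0 and 1070 (5.58%) at Day2, and DESeq2 called 417 and 144, with none of the 34 among them in either. At Day0, 17 of the 34 fold changes were above 0 and 17 below, with 5 groups fully higher and 5 fully lower in Gata2, where 18.3% and 14.2% of all genes did not overlap in those directions. The lowest p-values at Day0 were those of Klrk1 (-1.61, adjusted p = 0.341), Tcf7 (1.52, 0.344), Klrd1 (-1.54, 0.346) and Nkg7 (0.52, 0.348). Without Day0_WT replicate 2, which leaves Day0_WT with replicate 1 alone, 15 of the 34 (44.1%) were called, and 39.9% of all genes tested.

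At Day2 the libraries labelled Gata2 lay fully below WT for Zap70, Tcf7, Ctla4, Gzmb and Eomes and fully above for 0 genes, where 11.1% and 9.96% of all genes did not overlap. The lowest p was that of Eomes (-4.80, SE 1.25, unadjusted p = 0.00354, adjusted p = 0.634). The median over the 34 genes was -0.01, or -0.15 with bounds. The difference between the Day0 and Day2 genotype effects was called for 0 of the 34 and for 0 of all genes, with 1984 (10.4%) at an unadjusted p under 0.05 and, without Day0_WT replicate 2, 12 of the 34 (35.3%) and 31.1% of all genes called; after Tcf7, the lowest p was that of Eomes (-4.91, SE 1.51, unadjusted p = 0.00945, adjusted p = 0.465). DESeq2 called 1 of the 34 and 216 of all genes in that comparison.

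In CD45.2 marrow at Week2 all 34 genes had counts in every library, the lowest being 35 counts. Levels of NK and cytotoxic genes spread widely within each genotype, and Week2_Gata2 replicate 2 was the highest of 6 libraries for 27 of the 34 genes, or 25 on CPM without TMM scaling. It was the highest for 18.3% of all genes tested. The 27 took in 11 of the 12 NK, cytotoxic and T-box genes and 16 of the 22 others. Week2_WT replicate 3 was the lowest for 16 genes and for 8.21% of all genes, and Week2_Gata2 replicate 3 for 10 and for 22.3%.

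The summed CPM of the NK, cytotoxic and T-box genes without Nkg7 was 401, 153 and 91.0 in Week2_WT replicates 1 to 3 and 191, 665 and 98.7 in Week2_Gata2. That of the receptor complex was 26.9, 13.9 and 7.78 against 24.6, 48.4 and 9.84. In each genotype 1 library stood well above the others, WT replicate 1 and Gata2 replicate 2, and the groups overlapped.

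**Figure D4:**
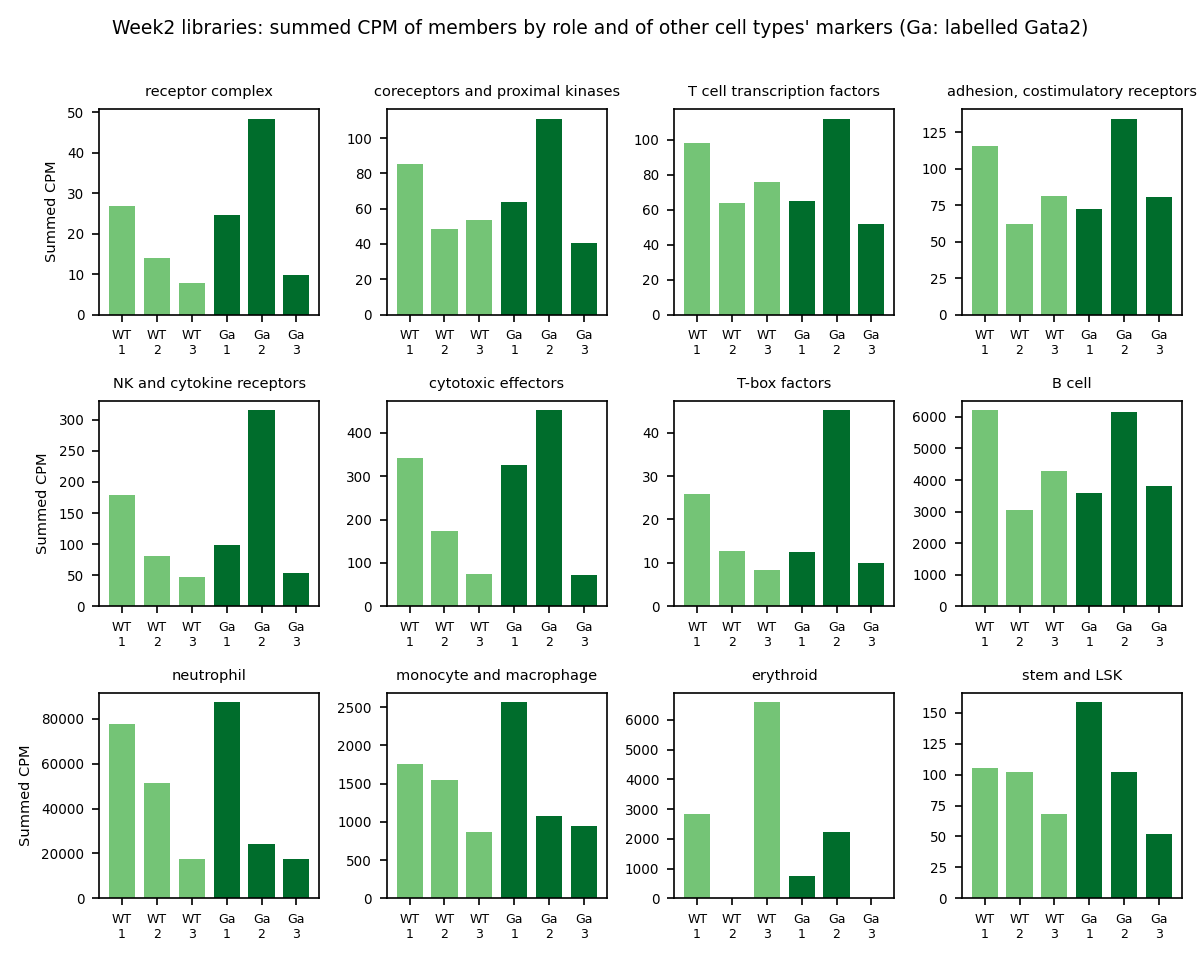
Summed CPM in each Week2 library for the 7 roles of the T and NK cell genes and for markers of other cell types, with WT bars light and bars of libraries labelled Gata2 (Ga) dark. Gata2 replicate 2 has the tallest bar in all 7 roles, at 315 CPM for the NK and cytokine receptors, while Gata2 replicate 1 has the tallest for neutrophils at 87364.

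Ncr1 stood at 29.0, 11.5 and 6.37 CPM in Week2_WT and at 13.1, 47.4 and 8.49 in Week2_Gata2. Gzma spread further, at 102, 23.8 and 13.7 against 35.2, 166 and 13.4, and Klrb1c was at 24, 13.8 and 6.81 against 8.88, 44.5 and 8.64. The 3 genes ordered the libraries alike at the top, with Gata2 replicate 2 first and WT replicate 1 next. Gzmb was at 40.9, 9.42 and 8.10 against 24.4, 55.7 and 8.38 CPM. Il2rb was at 84.8, 36.5 and 22.7 against 54.2, 146 and 22.7, and Ccl5 at 29.4, 15.8 and 7.84 against 8.91, 50.2 and 7.99. Nkg7 differed from these in its top library, at 145, 115 and 38.4 against 246, 145 and 38.3.

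The remaining NK genes kept that order. Klrd1 was at 12.3, 5.80 and 3.26 CPM in WT against 5.92, 25.2 and 4.45, Klrk1 at 28.3, 13.9 and 7.57 against 17.3, 51.4 and 9.47, and Prf1 at 24.3, 9.65 and 6.28 against 10.2, 33.3 and 5.07. Tbx21 was at 15.8, 5.21 and 4.21 against 8.56, 22.2 and 4.90, and Eomes at 10.1, 7.55 and 4.07 against 4.01, 22.9 and 5.17. In all 5 the highest library was Gata2 replicate 2 and the next WT replicate 1.

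Of the T cell genes, those of the receptor complex ran from 0.394 CPM (Cd3e) to 13.4 (Trbc1). Cd3e was at 2.07, 0.443 and 0.394 CPM in Week2_WT and 2.02, 3.13 and 0.414 in Week2_Gata2, Trac at 1.84, 0.826 and 0.754 against 2.48, 4.06 and 0.876, and Cd3d at 4.48, 4.58 and 1.71 against 3.77, 3.70 and 2.19. Replicate 3 was the lowest library of each genotype for all 3. Lck was at 65.4, 33.6 and 36.7 against 47.5, 85.9 and 25.2 CPM, Zap70 at 9.25, 4.59 and 4.64 against 7.68, 12.0 and 2.88, and Bcl11b at 1.72, 1.5 and 0.884 against 3.04, 3.46 and 1.62. Cd2, which B cells of the mouse also carry, was at 109, 49.9 and 72.6 against 66.6, 125 and 69.0, Lef1 at 86.4, 51.7 and 67.6 against 48.7, 86.9 and 41.7, and Cd28 at 2.61, 4.37 and 3.72 against 2.61, 4.13 and 4.40. Cd3d, Icos, Ctla4, Themis, Cd8b1 and Cd28 were highest in WT replicate 2 or Gata2 replicate 3.

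None of the 34 genes was called between genotypes at Week2, and no gene of 36485 was (0%) by edgeR's quasi-likelihood test; 87 genes (0.238%) passed an unadjusted p under 0.05 and DESeq2 called 1. For 0 of the 34 genes were the groups free of overlap, where 0.674% of all genes were higher and 0.737% lower in Gata2 without overlap. Of the 34, 28 fold changes were above 0 and 6 below, with a median of 0.51 on the log2 scale beside 0.000654 over all genes. The lowest p was that of Bcl11b (0.98, SE 0.56, unadjusted p = 0.111, adjusted p = 1). Without Week2_Gata2 replicate 2 the median over the 34 genes was -0.21, and without Week2_WT replicate 1 it was 1.01, so 1 library sets its direction.

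limma voom with quality weights called 22 of the 34, 21 of them higher in Gata2. Of all 36485 genes it called 12866, with 4734 higher and 8132 lower in Gata2. Its weights were 5.13 for Gata2 replicate 2 against 0.539 and 0.221 for the other Gata2 libraries, and 0.282, 1.83 and 3.16 for WT replicates 1 to 3. It thus weighed most the Gata2 library with the highest levels and the WT library that was lowest for 16 genes.

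The makeup of the Week2 libraries differed in other cell types too. The extraction protocol names cells negative for lineage markers for all samples, and the Week2 libraries, labelled CD45.2 cells, held high levels of neutrophil and B cell markers. The 8 neutrophil markers summed to 77571, 51400 and 17413 CPM in WT replicates 1 to 3 and to 87364, 24127 and 17676 in Gata2. The 10 B cell markers summed to 6202, 3052 and 4273 against 3600, 6169 and 3820, with the same libraries at the top as for the NK genes. The 6 plasma cell markers summed to 619, 313 and 464 against 419, 1100 and 407, and the 6 erythroid markers to 2847, 22.7 and 6589 against 762, 2215 and 17.1. Every marker of these lists had a count in every Week2 library, and their part in the spread of the T and NK cell genes was not tested.

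Of 28 other T cell genes and 28 other NK and cytotoxic genes, 0 were called at Week2; 26 and 25 of the fold changes were above 0, with medians of 0.29 and 0.40. The lowest p-values were those of Foxp3, the regulatory T cell factor (0.145 ± 0.076 CPM in WT and 0.367 ± 0.142 in Gata2), Tcrg-C1 (1.63 ± 1.02 and 3.57 ± 3.0) and Itgae in the first list, and of Cd244a (16.3 ± 5.70 and 30.4 ± 13.5), S1pr5 (3.94 ± 0.467 and 6.29 ± 1.33) and Klri2 in the second (n = 3 each), all with an adjusted p of 1 by edgeR's quasi-likelihood test. S1pr5 was the 1 gene of both lists whose groups did not overlap.

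Week2 marrow was set beside Day0 LSK cells to place the levels, although the sort gates differ, so that the gate and the time cannot be told apart. In this fit of all 16 libraries the median log2 fold change over all genes was 0.95 in WT and 1.22 in Gata2, and values are to be read against it. In WT 9 of the 34 genes rose and 1 fell, where 21.9% of all genes rose and 11.6% fell (33.5% in all); in Gata2 16 rose (47.1%) and 1 fell, where 32.6% rose and 10.4% fell (43% in all). Without overlap, 20 genes were higher and 4 lower in WT, where 46.2% and 15.5% of all genes were, and 21 and 2 in Gata2, where 45.9% and 18.2% were. The median over the 34 genes was 1.74 in WT and 1.89 in Gata2.

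The 9 that rose in WT, all of which rose in Gata2 too, were Lef1, Cd2, Klrb1c, Ncr1, Gzma, Gzmb, Prf1, Eomes and Tbx21. Cd2 rose most, from 0.615 ± 0.87 to 77.9 ± 20.5 CPM in WT (6.79, SE 0.94, adjusted p = 0.000434) and from 0.569 ± 0.236 to 84.5 ± 22.8 in Gata2 (7.20, SE 0.79, adjusted p = 6.62e-05). Gzma rose by 5.36 in WT (SE 1.5, adjusted p = 0.0261) and 6.09 in Gata2 (SE 1.29, adjusted p = 0.00743), and Lef1 by 4.43 (adjusted p = 1.55e-06) and 4.25 (adjusted p = 2.24e-07). Cd3d, Zap70, Cd28, Il2rb, Klrd1, Klrk1 and Ccl5 rose in Gata2 and did not pass the test in WT. The difference between genotypes was called for 0 of the 34 genes and 0 of all genes by edgeR's quasi-likelihood test, with 1459 (4.68%) at an unadjusted p under 0.05, and DESeq2 called 8 of all genes; without Day0_WT replicate 2, 5 of the 34 (14.7%) and 11.1% of all genes were called.

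Gata3 fell in both, from 9.72 ± 8.30 to 2.99 ± 0.41 CPM in WT (-1.71, SE 0.49, adjusted p = 0.0179) and from 13 ± 1.81 to 4.23 ± 1.67 in Gata2 (-1.61, SE 0.45, adjusted p = 0.0133). The WT fall of Gata3 rested on Day0_WT replicate 2, without which it was -0.36 (adjusted p = 0.498). Cd3e, Cd3g, Trac, Trbc1, Trbc2, Lck and Tcf7 were called in neither. On the scale of all 16 libraries Lck stood at 32.0 ± 2.45 CPM in Day0_WT and 45.5 ± 10.8 in Week2_WT, and at 33.8 ± 4.48 and 49.3 ± 21.4 in Gata2. Without Day0_WT replicate 1, which leaves its group with 1 library, Lef1, Cd2 and Gata3 kept their WT calls. Those of Gzma (log2 fold change 4.48), Gzmb (2.14), Prf1 (4.03), Klrb1c (2.14), Ncr1 (2.25), Eomes (2.45) and Tbx21 (1.91) were lost. Without Day0_WT replicate 2, those of Gata3 and Ncr1 (1.86) were lost. Without Week2_WT replicate 1, 6 of the WT calls remained, 17.6% of the 34, beside 33.0% of all genes tested in that fit. Without Day0_Gata2 replicate 1, 11 of the 17 Gata2 calls remained, 32.4% of the 34, beside 20.2% of all genes. The same comparison called all 8 neutrophil and all 10 B cell markers higher in both genotypes; their part in the changes of the 34 genes was not tested.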

How the data were processed

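RNA was measured in 16 libraries of mouse bone marrow. The authors deposited 1 table of read counts, whole numbers for each Ensembl gene; 0 of its columns lacked a sample. The tools named are Trimmomatic 0.38 and STAR 2.5.2b, with build mm10, per the submitters' processing notes. Which program counted the reads, whether it used strand and which gene models it took is not given in the sources used here. Counts of genes that overlap, lie antisense or are nearly identical may thus mix. The protocols name 2 library kits without saying which sample had which.

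Symbols, gene coordinates and exon lengths came from GENCODE M21 (GRCm38, which is mm10), which matched 45143 of 45706 IDs. R 4.3.3 and edgeR 4.0.16 were used to test the deposited counts (filterByExpr, scaling by TMM, robust quasi-likelihood test, Benjamini-Hochberg adjustment over all genes tested, calls at an adjusted p under 0.05). A fit held the 10 LSK libraries, another the 6 Week2 libraries and another all 16 (for Week2 against Day0), with 9 comparisons in total; all 34 genes passed the filter in each fit. Levels are CPM with TMM scaling of the fit concerned. Where a group had no count, the fold was bounded with 3 counts per library. Promoters came from RefSeq.

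The members, lists and tests were chosen with earlier results of these data known. The named genes were all 34 by role. Values per library were meant for those called in any comparison and the 5 of highest level per length at Week2 and in LSK cells. They were also meant for Cd3e, Trac, Lck, Ncr1 and Klrb1c. Some called genes, such as Gata3, are given by range or mean, and some without Week2 library values. From the lists of other T cell, NK cell and innate lymphoid cell genes, called genes or the 3 of lowest p were named, except 1 that is not reported here. Lists are described by counts and medians. A chi-square of each pair of libraries in a group, over genes with 20 or more counts, was at least 28.4 per degree of freedom, so no library was a repeat of another. Sex was read as male where Ddx3y exceeded 10 CPM.

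Alternatives tried were DESeq2 1.42.0, voom with quality weights (limma 3.58.1), scaling by RLE or upper quartile, leaving out the filter, requiring 5 CPM in 2 libraries, other sets of libraries, sex as a covariate, the replicate number as a block, and each library left out. A group left with 1 library was assumed to vary like the rest. The procedure was tested on simulated counts.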

Additional observations from a re-analysis of the deposited data

How the results depend on the processing

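Counts below are of the 34 genes called. At Week2 between genotypes (0) only voom moved the count (22). Day0 to Day2 in WT (14, beside 5720 of all genes) gave 3 (1199) with only the libraries of the groups compared. It gave 7 (2747) with a replicate block and 6 with the filter of 5 CPM. In Gata2 (12, beside 1782 of all genes) those settings gave 28 (5676), 4 (745) and 6. DESeq2 gave 22 (3471) and voom 22 (4127). Some settings tested other numbers of genes, so these pairs of counts are not shares. The filter of 5 CPM left Cd3e, Tbx21 and Ncr1, among others, untested in LSK cells, so its lower counts are not of lost calls alone. The genotype difference between days (0) gave 1 with DESeq2. Week2 against Day0 gave 6 without a filter and 2 with voom in WT (10, beside 10427 of all genes). In Gata2 (17, beside 13396 of all genes) it gave 26 with voom (20522). Leaving out 1 library gave 0 to 15 for Day0 genotype, 6 to 18 for Day2 against Day0 in WT, 4 to 22 in Gata2, 0 to 12 for the genotype difference, 3 to 15 and 11 to 19 for Week2 against Day0 in WT and Gata2, 0 to 5 for that genotype difference, and 0 for genotype at Day2 and Week2; in the same order, counts over all genes ran from 0 to 8655, 3191 to 12386, 499 to 4863, 0 to 6733, 4483 to 13483, 5420 to 16022, 0 to 3772, 0 to 48 and 0 to 4. Without Day0_WT replicate 2, which leaves the library without counts of 9 genes to stand for its group, fitted log2 changes reversed; over all fits with 1 library left out they ran from -1.05 to 2.25 (Cd28), -1.07 to 8.65 (Gzma), -1.28 to 2.36 (Gzmb), -1.11 to 7.94 (Cd2) and -1.31 to 8.11 (Cd8a) for Day0 genotype, -3.12 to 7.02 (Trbc1) and -2.37 to 7.95 (Klrb1c) for Day2 against Day0 in WT, -2.37 to 0.90 (Cd28) for its genotype difference, and -9.15 to 1.21 (Cd2), -9.36 to 1.38 (Cd8a) and -10.7 to 1.12 (Klrb1c) for that of Week2; these fitted values are no bounds. For all genes, Day2 against Day0 called 5720 in WT (1355 with voom, 1199 with the groups alone, 2747 with the block) and 1782 in Gata2 (3471 with DESeq2, 4127 with voom, 5676 with the groups alone, 745 with the block). Between genotypes, where 0 of all genes were called, Week2 gave 1 with DESeq2, 12866 with voom, 12 with the block and 2 with sex; Day0 gave 1 without a filter and 417 with DESeq2; Day2 gave 22 without a filter, 1 with that of 5 CPM or the block, 144 with DESeq2, 23 with voom, 4 with all 16 libraries, 11 with the groups alone and 3 with sex; the genotype difference gave 2 without a filter and 216 with DESeq2 for Day2, and 8 with DESeq2 for Week2. Week2 against Day0 called 10427 in WT (5953 with the filter of 5 CPM) and 13396 in Gata2 (5919 with that filter, 20522 with voom). Upper quartile scaling moved the all-gene median of Day2 against Day0 in WT from -0.11 to -0.26. Same-numbered libraries did not all deviate together (r = 0.72, -0.77 and 0.50 at Week2, 0.05 and -0.01 at Day0, -0.08 and -0.08 at Day2). In a group of 2 libraries the deviations mirror each other, so this check cannot exclude that the numbers pair the samples. The main tests used no pairing. The causes of these shifts were not tested. Depth limits the LSK values: 3 counts are 0.0422 to 0.145 CPM.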
